A study of Caenorhabditis elegans with 2 samples.

Results

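The weak reproducible sites of LSY-2 were 7950 stretches of the Caenorhabditis elegans genome that stood below the authors' optimal peak list and yet recurred in both biological replicates. They were chosen by measured values: a summit of the relaxed list called on both replicates together was kept when it lay over 200 bp from every summit of the optimal list, within 100 bp of a summit in the relaxed list of replicate 1, and within 100 bp of a summit in that of replicate 2. The pooled relaxed list held 30000 peaks on the build ce11, of which 6650 lay within 200 bp of an optimal summit. Among the remaining 23350, both replicates had a summit at the 7950 weak reproducible sites, 1 replicate did at 12305, and neither did at 3095. The comparisons below set the 7950 beside the 6312 optimal peaks and the 12305 summits seen in 1 replicate.

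LSY-2 is a C2H2 zinc finger transcription factor, a protein that reads DNA through a row of zinc-binding fingers. Its best known role is in the paired ASE taste neurons: it promotes the left-right difference between them by way of lsy-6, a microRNA gene. A chromatin immunoprecipitation peak list ranks places by how far the pulled-down DNA exceeds a control, and the lower ranks can hold weakly bound places, places bound in few cells of the animal, and noise together.

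The series held 1 group of 2 biological replicates with 1 library each, so no condition was compared with another. All animals were whole L2 larvae of mixed sex from the strain OP367, genotype unc-119(tm4063) III; wgIs367, in which the integrated transgene wgIs367 makes LSY-2 fused to a C-terminal GFP-FLAG tag, from regulatory sequence that the labels do not name, and chromatin was sheared by sonication. Both the peaks and their absence are therefore averages over every cell of the larva that held tagged protein, and few binding cells cannot be told apart from weak binding in many. The lists hold no read counts, so the depth of either library is unknown. Every peak carries a score from the authors' peak caller, on a scale that the sources used here do not give. Intervals in brackets are 95% intervals by the exact Clopper-Pearson method, and they account for the number of sites alone.

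A few of the sites are shown as sequence, so that the letters at a weak summit can be seen. All are on chromosomes II to V and X. The first 6 are the 2 promoter sites with the highest pooled scores for each of 3 short motifs, namely GAGAGA, then the motif ACGCAG, then the motif ACCGTA, which were picked from earlier results on the optimal peaks. The last 3 are the highest-scoring promoter sites on these chromosomes in the heterochronic, Wnt and pan-neuronal gene lists, whose members are described later. Each line gives the plus strand of ce11 from 50 bases before to 50 bases after the summit, in lower case, with any match to these motifs on either strand in capitals.
gln-3 site, chrIV:16171482-16171582: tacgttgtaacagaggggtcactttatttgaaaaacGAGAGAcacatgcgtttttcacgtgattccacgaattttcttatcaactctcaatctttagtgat
fbxo-11.2 site, chrIII:1052994-1053094: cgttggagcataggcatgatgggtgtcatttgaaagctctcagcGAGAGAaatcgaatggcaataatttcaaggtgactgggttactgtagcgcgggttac
tag-77 site, chrIV:8510635-8510735: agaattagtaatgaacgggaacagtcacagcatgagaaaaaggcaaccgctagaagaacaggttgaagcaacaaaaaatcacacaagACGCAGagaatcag
dpf-4 site, chrIII:5859251-5859351: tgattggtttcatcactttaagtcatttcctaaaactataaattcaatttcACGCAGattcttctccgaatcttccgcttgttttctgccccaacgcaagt
snt-5 site, chrV:1412067-1412167: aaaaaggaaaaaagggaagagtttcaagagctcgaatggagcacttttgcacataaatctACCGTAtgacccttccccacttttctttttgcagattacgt
npr-17 site, chrIII:7996526-7996626: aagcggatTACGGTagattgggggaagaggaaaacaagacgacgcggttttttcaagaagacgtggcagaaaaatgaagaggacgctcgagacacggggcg
hbl-1 site, chrX:5821224-5821324: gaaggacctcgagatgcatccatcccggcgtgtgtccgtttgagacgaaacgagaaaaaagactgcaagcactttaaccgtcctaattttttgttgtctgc
dsh-1 site, chrII:5225430-5225530: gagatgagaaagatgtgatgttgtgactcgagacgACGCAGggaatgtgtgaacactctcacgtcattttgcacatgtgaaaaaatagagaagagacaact
syd-2 site, chrX:10555851-10555951: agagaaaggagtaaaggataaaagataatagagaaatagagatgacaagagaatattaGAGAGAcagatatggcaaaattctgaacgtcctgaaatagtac

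The summit of the gln-3 site lay 854 bp upstream of the 5′ end of gln-3, which encodes a glutamine synthetase, and had a pooled score of 57.4, with 17.8 in replicate 1 and 45.4 in replicate 2. At dpf-4, a dipeptidyl peptidase gene, the summit lay 7 bp upstream and the scores were 57.3 pooled, 19.3 and 31.2. Those of the snt-5 site, 558 bp upstream of a synaptotagmin gene, were 51.1, 33.4 and 18.9. At npr-17, a neuropeptide receptor gene, the motif stands as its reverse complement, and the scores were 50.6, 29.1 and 21.5. Each of these places was near the top of its class in the pooled list and lower in at least 1 replicate list.

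Because the score and the recurrence chose the sites, their scores are given as a description. The pooled score ran from 8.69 to 57.9 with a median of 29.8, against 57.98 to 20472 and a median of 123 for the optimal peaks. The strongest weak site had 57.93 and the weakest optimal peak 57.98, so the classes meet at the cutoff. On the distance rule, the farthest replicate summit of a kept site lay 100 bp away and the nearest one left out lay 1 bp farther. By rank the sites ran from place 6314 in the pooled list, with a median place of 11783.5.

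In the single replicates the sites ranked lower than in the pooled list. Their median place was 14080 in replicate 1, where 307 of them stood among the first 6312, and 14267.5 in replicate 2, where 377 did. Only 15 sites were among the first 6312 in both replicates and 7281 were in neither. The scores of the replicates were loosely related across sites, with a Spearman's rho of 0.330 over the 7950 sites, against 0.861 over 5978 optimal summits that both replicates also had within 100 bp. These correlations are across sites, which share their libraries and are not replicates, and the narrow score range of the weak sites was set by the rule.

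The q-values that the authors deposited passed 0.05 at 5922 of the sites, or 74.5%, in the pooled list, where 52.6% of all 30000 peaks passed. In replicate 1 the count was 4907 of the sites, or 61.7%, beside 55.7% of that whole list. In replicate 2 it was 4964, or 62.4%, beside 57.1%. All 3 lists passed at 3453 sites, a count for which no share over all peaks was computed. Since q and score come from the same peak calls, nothing is read from these counts.

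The distances between summits, which the rule caps at 100 bp, are given as a description. The median distance from the pooled summit was 17 bp to that of replicate 1 and 21 bp to that of replicate 2. The summits of the replicates lay a median of 44 bp from each other, and 4510 sites, or 56.7%, had them within 50 bp. The deposited width was 400 bp for 7885 of the 7950 sites, or 99.2%, against 3144 of 6312 optimal peaks, or 49.8%. The deposited width therefore hardly varied among the weak sites.

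The distance to the optimal list, which the rule holds above 200 bp, is given as a description and was not set beside that of random positions. The nearest optimal summit lay a median of 2646.5 bp away and at most 128692 bp. Within 500 bp there were 426 sites and within 1000 bp 1540, or 19.4%, while 1278, or 16.1%, lay over 10000 bp from any optimal summit. At 264 sites a replicate summit that supported the site was itself within 200 bp of an optimal summit. Neighbouring weak sites were joined where their summits lay within 1000 bp, which gave 6692 clusters, and 2265 sites, or 28.5%, had such a neighbour. The largest cluster held 6 sites, with summits from 14298249 to 14300509 on chromosome II.

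The weak sites had a promoter share close to that of the genome, while the optimal peaks were concentrated in promoters. Promoters were windows around the 5′ ends of protein-coding genes that began 1000 bp before the end and stopped 200 bp into the gene. They held 1799 of the weak sites, or 22.6% (interval 21.7 to 23.6), close to the 21.5% of the genome that such windows cover. The optimal peaks had 48.4% there and the summits seen in 1 replicate 19.1%. Introns held 37.8% of the weak sites, more than the 30.5% of the genome that is intron and the 23.1% of the optimal peaks. Intergenic stretches held 29.0% and covered 25.04% of the genome.

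**Figure D1:**
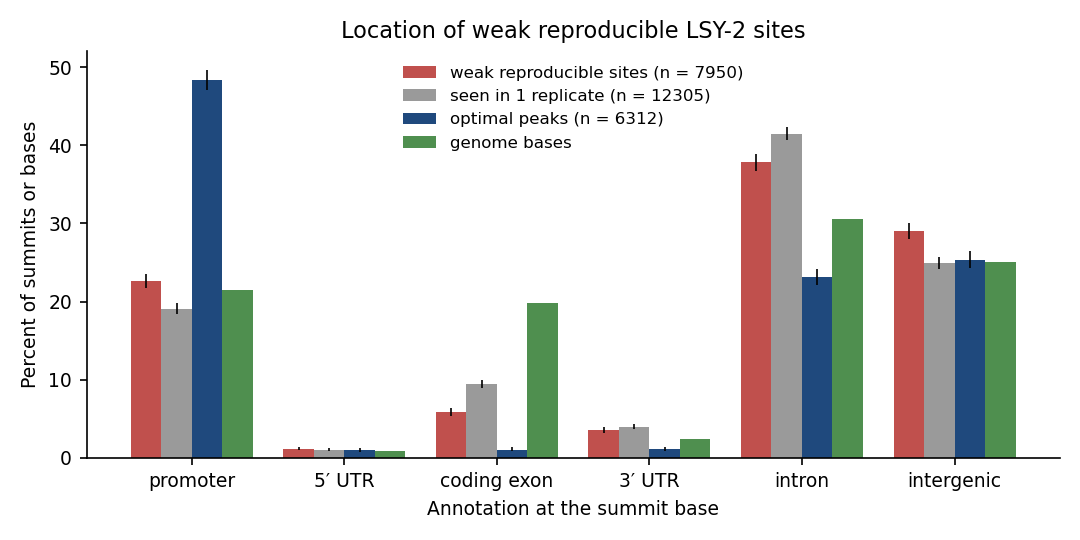
Percent of summits in each annotation class for the weak reproducible sites, the summits seen in 1 replicate and the optimal peaks, with 95% exact intervals as bars, beside the percent of genome bases in that class. Promoters hold 22.6% of weak sites and 48.4% of optimal peaks, while coding exons hold 5.84% of weak sites and make up 19.8% of the genome.

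Coding exons held far fewer weak sites than their length. They held 5.84% of the sites (interval 5.33 to 6.37) against 19.8% of the genome, and only 1.06% of the optimal peaks. Summits seen in 1 replicate stood at 9.46%, and those seen in neither at 10.02%. The order of the classes was the same for promoters in reverse, with 48.4%, 22.6%, 19.1% and 17.997% from the optimal peaks down. The intervals of weak sites and summits seen in 1 replicate did not overlap for either annotation.

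Around gene starts the weak sites kept a low version of the upstream peak that the optimal list shows. The nearest protein-coding 5′ end was a median of 1744.5 bp away, against 802.5 bp for the optimal peaks. Of the 4327 weak sites within 2000 bp of a 5′ end, 52.05% were upstream of it, against 75.9% of the optimal peaks and 45.9% of the summits seen in 1 replicate. The last 200 bp before the 5′ end held 518 weak sites, or 6.52%, and 20.8% of the optimal peaks. The fullest 100 bp were those from 200 to 100 bp upstream, with 272 weak sites.

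**Figure D2:**
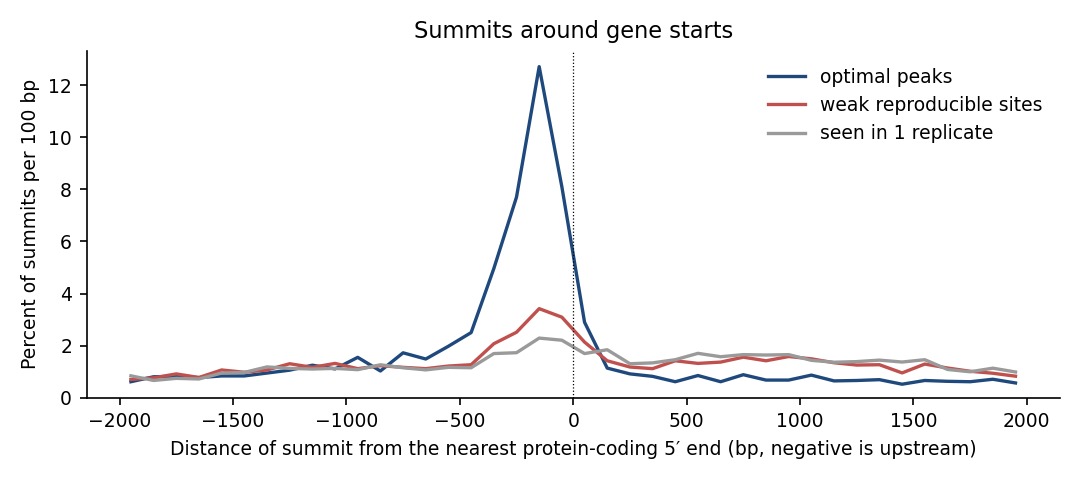
Percent of summits per 100 bp of signed distance from the nearest protein-coding 5′ end, negative upstream, for optimal peaks, weak reproducible sites and summits seen in 1 replicate. The weak sites rise to 3.42% in the bin from 200 to 100 bp upstream, well under the optimal peaks.

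Intronic summits of every class lay in long and first introns more often than intron bases do. The intron around a site had a median length of 1571 bp, while the median over all intron bases was 958 bp and over the optimal peaks 2266.5 bp. Introns over 1000 bp held 63.2% of the 3007 intronic sites and 48.4% of intron bases. First introns held 43.6% of the sites and 31.4% of intron bases. For long introns the optimal peaks stood higher at 70.9%, the summits seen in 1 replicate at 58.5% and those seen in neither at 55.2%. For first introns these shares were 51.2%, 39.8% and 35.03%. Genes that also had an optimal peak in the promoter held 33.3% of the intronic weak sites (interval 31.6 to 34.97) but 21.04% of intron bases. That share was 31.8% for the summits seen in 1 replicate, whose interval of 30.5 to 33.1 overlaps the former, so it did not set the reproducible sites apart.

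Chromosome III had the most weak sites for its length, 110.7 per Mb, and chromosome V the fewest, 54.8 per Mb. The X chromosome held 1380 of them, or 17.4% (interval 16.5 to 18.2), and makes up 17.7% of the sequence. For the optimal peaks the share on X was 15.7% (interval 14.8 to 16.6). The middle sections of the autosomes, 33.3% of their length, held 42.2% of the autosomal weak sites and 44.8% of the optimal peaks. A repeat-masked base was at the summit of 31.2% of the weak sites, between the 19.2% of the optimal peaks and the 38.5% of the summits seen in 1 replicate, and 35.7% of the genome was masked.

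The bases under the weak summits were richer in G and C than their surroundings, though less so than under the optimal peaks. The 50 bp on either side of the summit had a GC content of 37.3% ± 8.39 (SD over 7950 sites), and windows of the same length 300 bp to either side 35.2%. The optimal peaks had 43.99% at the summit and 35.1% beside it. Summits seen in 1 replicate had 34.8% and 34.6%, which left no rise to speak of. GC content also bears on how evenly DNA is amplified and sequenced, and its part in the location and motif results was not tested.

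**Figure D3:**
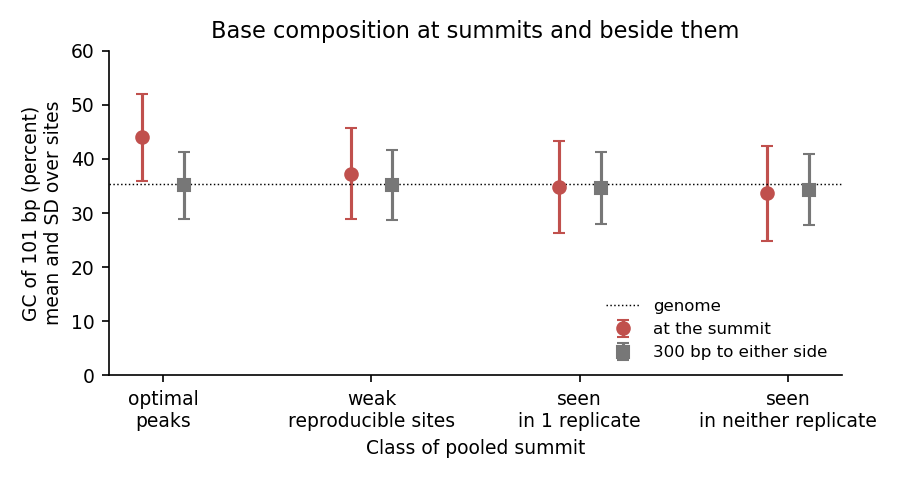
Mean GC content within 50 bp of the summit and 300 bp to either side for 4 classes of pooled summit, with SD over sites as bars and the genome mean as a dotted line. The rise over the flanks is 8.89 points for optimal peaks, 2.12 for weak reproducible sites and 0.15 for summits seen in 1 replicate.

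The leading purine-rich words of the optimal peaks were also among the leading words of the weak sites. Each motif was searched on both strands within 50 bp of the summit, and copies of GAGAGA can overlap each other. This motif stood at 1042 weak sites, or 13.1% (interval 12.4 to 13.9), against 6.14% of the flanking windows, 5.18% of 992797 windows of the same length across the genome, 8.25% of the summits seen in 1 replicate and 27.1% of the optimal peaks. Of all 2080 six-letter words, joined with their reverse complements, AAGAGA had the largest excess over the flanks, followed by GAGAGA and in turn by AGAGAA. The 25 leading words of the weak sites and the 25 of the optimal peaks had 11 in common. Many of these 11 overlap each other, such as GAGAGA and AGAGAG, or ACACAC and CACACA, so they are not separate motifs. Several A-rich words were among the 25 leading words of the weak sites but not among those of the optimal peaks. Among them AAGAAA stood at 25.5% of weak sites and 20.2% of their flanks, but at 21.1% of optimal peaks and 21.7% of theirs. At the summits seen in 1 replicate AAGAAA was also above the flanks, with 23.015% against 20.3%. Its rise at the summit was therefore not particular to the weak reproducible sites. Words such as AAAATT, at 35.6% of weak sites and 44.9% of flanks, were thinner at the summit.

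ACGCAG was found at 330 weak sites, or 4.15% (interval 3.72 to 4.61), with 2.04% in the flanks and 14.6% of the optimal peaks. ACCGTA behaved otherwise. It stood at 282 weak sites, or 3.55% (interval 3.15 to 3.98), with 2.89% in the flanks and 2.77% of windows across the genome. Among the 500 optimal peaks with the highest scores it stood at 39.2%, yet among the 500 with the lowest at 2.40%, so the weak sites resembled the bottom of the optimal list in this word. A match is a run of letters and shows no binding by itself.

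Sites with a GAGAGA had a median pooled score of 35.1, and those without one 29.0. Their summits were soft-masked in 22.2% and 32.6% of cases and had a GC content of 41.2% and 36.7%. Sites with an ACGCAG lay in promoters in 30.9% of cases, against 22.3% of the sites without one.

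No step at the cutoff was seen in these features. The 500 weak sites with the highest scores were at promoters in 28.2% of cases (interval 24.3 to 32.4) and the 500 optimal peaks with the lowest scores in 155 cases (interval 26.97% to 35.3%). Introns held 152 and 160 of them, GAGAGA stood at 96 and 100, and ACGCAG at 42 and 44. Mean GC content was 40.3% and 40.5%. In each of these the intervals overlapped or the means differed by far less than the SD over sites, which was 8.03 points in GC content for the weak sites.

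Along the score the features of the weak sites changed step by step. From the 1665 sites with a pooled score under 20 to the 767 with 50 or more, the promoter share went from 20.4% to 27.2%, GAGAGA from 8.83% to 20.1%, ACGCAG from 2.40% to 7.82% and mean GC content from 35.2% to 40.2%. The 500 weakest sites, with scores from 8.69 to 14.5, had GAGAGA at 7.40% (interval 5.26 to 10.1), an interval that reaches down to the 6.14% of the flanks.

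Within bands of similar score from 20 to 40 the classes differed little in promoter share and in GAGAGA. Between scores of 20 and 30 the promoter share was 21.3% for 2366 weak reproducible sites and 20.4% for 2353 summits seen in 1 replicate, and GAGAGA stood at 10.2% and 9.52%. Between 30 and 40 the promoter shares were 23.1% and 21.8%, and GAGAGA stood at 14.1% in both. These pairs of intervals overlapped, which leaves small differences undetected. Mean GC content was higher at the weak reproducible sites in every band. Between 30 and 40 it was 38.2% ± 8.09 (SD over sites) against 36.9% ± 8.18. ACGCAG was also more frequent at them in every band, but the intervals overlapped in every band. The gap was widest from a score of 50 up, with 7.82% against 4.07%, the latter being 5 of 123 summits. Between 30 and 40 it was 4.99% against 4.22%. Under a score of 20 the scores were not level, with a median of 16.4 at the weak reproducible sites and 13.1 at the summits seen in 1 replicate. There the intervals did not overlap for GAGAGA, which stood at 8.83% (interval 7.51 to 10.3) of the weak reproducible sites and 6.89% (interval 6.37 to 7.45) of the 8630 summits seen in 1 replicate. The gap between the classes over all scores went with a median pooled score of 29.8 at the weak reproducible sites and 15.5 at the summits seen in 1 replicate.

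**Figure D4:**
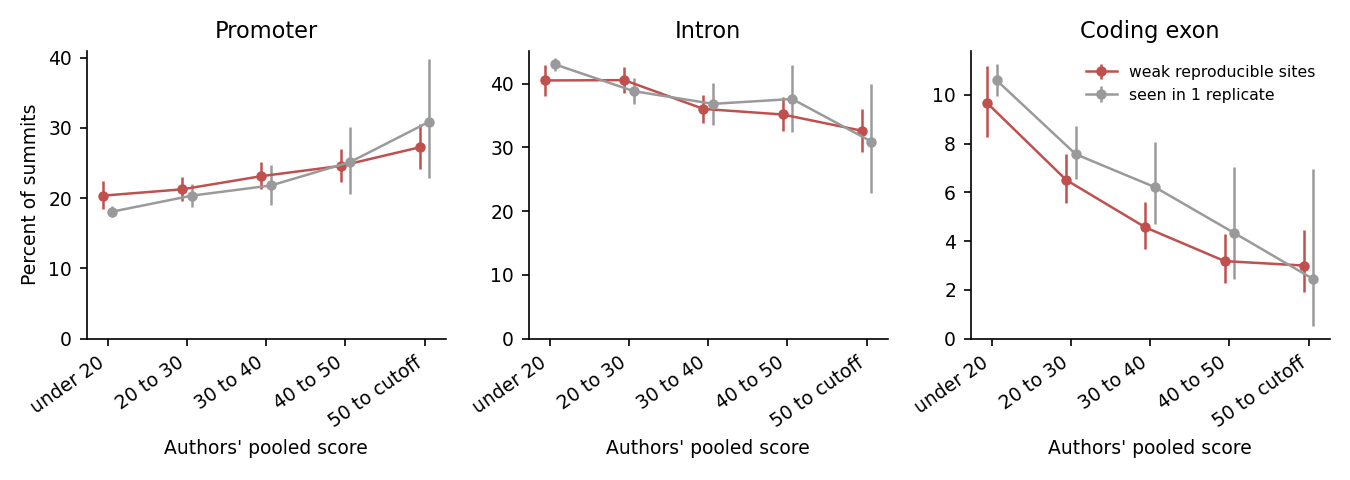
Percent of summits in promoters, introns and coding exons by the authors' pooled score, for weak reproducible sites and for summits seen in 1 replicate, with 95% exact intervals. Promoter share rises and coding exon share falls with the score in both classes, and the intervals of the classes overlap in every bin.

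Among the 19973 protein-coding genes, 1805, or 9.04%, had a weak site in the promoter. An optimal peak was in the promoter of 3831, or 19.2%, and 337 had both. The 1468 genes, or 7.35%, with a weak site and no optimal peak in the promoter are those that the optimal list leaves without a promoter peak. A weak site stood in 8.80% of the promoters with an optimal peak and in 9.09% of those without, so weak sites were about as frequent in both kinds of promoter, although the rule bars them from the 200 bp beside an optimal summit. Counting the gene body as well, 3603 genes, or 18%, had a weak site, and these genes had a median length of 3521 bp against 1847 bp for the rest.

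Of the 20 highest-scoring weak sites, 9 had a protein-coding 5′ end within 2000 bp. They included hir-1, a receptor tyrosine kinase gene, 319 bp downstream of a site with scores of 57.9 pooled, 37.7 in replicate 1 and 19.3 in replicate 2. At ttr-48, of the transthyretin-related family, the summit lay 159 bp upstream with 57.9, 29.3 and 27.4. The nuclear receptor gene nhr-40 had a summit 871 bp upstream with 57.7, 36.3 and 24.3, and abhd-5.1 one 83 bp inside with 57.7, 33.6 and 19.5. The others were at ztf-30, mom-4, F59F5.7, F55D10.4 and W02F12.4. The remaining 11 lay in introns, 3′ UTRs and intergenic stretches farther from any gene start.

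The genes with the most weak sites were long, all those named here spanning 17669 bp or more, and were named after their values were seen. All protein-coding genes with their promoters held 0.751 weak sites per 10 kb. crh-1, the CREB transcription factor gene on chromosome III, held 16 weak sites beside 4 optimal peaks, 15 of the weak ones in introns, with pooled scores from 13.8 to 56.2, which made 4.30 per 10 kb. mpz-1, encoding a protein with many PDZ domains, held 15, and spsb-1 held 13. The nuclear receptor gene daf-12 on X held 12, all in introns, with scores from 11.7 to 42.96, and the FOXO gene daf-16 on I held 12 with scores from 19.7 to 52.6. jun-1, par-1, rgs-4 and DH11.5 also held 12 each, and pde-3, a phosphodiesterase gene, held 11 with no optimal peak in its promoter or body.

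Heterochronic genes time the fates of larval stages, and L2 is the stage at which several of them switch. Of 10 such protein-coding genes 3 had a weak site in the promoter, beside 9.04% of all genes, and 9 had one in the promoter or body, beside 18% of all genes, with a median gene length of 6802.5 bp. lin-41, encoding an RNA-binding TRIM protein, had one 323 bp upstream with scores of 36.8 pooled, 17.7 in replicate 1 and 18.9 in replicate 2, and no optimal peak. hbl-1, the hunchback-like zinc finger gene, had one 868 bp upstream with 27.6, 19.5 and 8.11, and no optimal peak either. lin-14, which drives the earliest larval fates, held 11 weak sites and 8 optimal peaks over its length, and the one in its promoter was among the weakest of all, at 8.996.

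At the microRNA genes of this pathway the distance to the nearest weak summit varied widely. let-7 on chromosome X had a summit 583 bp inside its annotated transcript, in a stretch that also counts as the promoter of a protein-coding gene, with scores of 49.1 pooled, 37.3 and 14.95. lin-4 had one 1534 bp upstream in an intron, with 55.5, 21.3 and 35.1, which lay only 222 bp from an optimal summit. A summit at 14365459 on chromosome V lay 824 bp downstream of the 5′ end of mir-241 and within 1000 bp upstream of mir-48, with 10.2, 14.4 and 6.23. The summit nearest to mir-48 was another one, 945 bp downstream of its 5′ end, with 30.03, 8.79 and 9.38. The nearest weak summit to mir-84 lay 17018 bp away. Of all 261 annotated microRNA genes, 24, or 9.20%, had a weak site within 200 bp and 11 had an optimal peak. These windows, which are not the promoter windows of protein-coding genes, covered 0.118% of the genome. They held 0.289% of the weak sites and 0.174% of the optimal peaks.

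LSY-2 is best known for its role in the ASE neurons. None of the 23 protein-coding ASE genes had a weak site in the promoter, beside 9.04% of all genes, a share at which so short a list would hold few. An optimal peak was there in 4, or 17.4%, near the 19.2% of all genes, and 2 had a weak site in the promoter or body, beside 18% of all genes. The nearest weak summit to lsy-6 lay 18382 bp from its 5′ end. It was 24847 bp from lsy-2 itself, 18204 bp from cog-1, 10114 bp from die-1, 10740 bp from lim-6 and 9974 bp from fozi-1. For the ASE receptor genes it was 16615 bp from gcy-5 and 3031 bp from gcy-7, and for che-1, the terminal selector of ASE fate, 14804 bp. Exceptions in gene bodies were lsy-22, a Groucho-family gene, with 7 sites that scored up to 53.2, and lsy-12, a MYST acetyltransferase gene, with 1. The ASE neurons are a single pair of cells in a whole larva, and binding in them alone was not tested.

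Of 21 pan-neuronal genes 5, or 23.8%, had a weak site in the promoter, beside 9.04% of all genes, and 3 of them had no optimal peak there. syd-2, the liprin-alpha gene of the synaptic active zone, had one 662 bp upstream with scores of 34.4 pooled, 7.27 in replicate 1 and 16.3 in replicate 2. That summit lay only 208 bp from an optimal summit, and the promoter also held an optimal peak with a score of 190.8. At cla-1, another active zone gene, the scores were 26.2, 19.8 and 7.44, and at the syntaxin gene unc-64 20.4, 11.9 and 12.99. Of 25 neuronal identity genes 3, or 12%, had one, near the 9.04% of all genes, and none of these had an optimal peak. They were the POU homeobox gene unc-86 with 57.2, 34.8 and 25.1, the T-box gene mab-9 with 49.4, 32.4 and 16.5, and the distal-less gene ceh-43 with 22.4, 17.0 and 11.1.

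Wnt signalling, by which cells of the larva take their polarity and fate, had weak sites in the promoters of 6 of 27 genes, or 22.2%, beside 9.04% of all genes. None of the 6 had an optimal peak there, and genes of that kind were 7.35% of all genes. The ligand gene lin-44 had one with a pooled score of 13.7. Among the receptors, the Frizzled gene mom-5 had 3 with scores up to 23.9, the Ryk gene lin-18 had 2, up to 31.1, and the Ror gene cam-1 had 1 with 36.6. Inside the cell, the Dishevelled gene dsh-1 had one 96 bp upstream with 56.9 pooled, 30.6 in replicate 1 and 30.5 in replicate 2, and the kinase gene mom-4 one 46 bp inside with 57.8, 43.9 and 12.9.

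In insulin and TGF-beta signalling, which govern dauer entry and body size, 8 of 25 genes, or 32%, had a weak promoter site, beside 9.04% of all genes. Of these 7, or 28% of the list, had no optimal peak, beside 7.35% of all genes. The insulin receptor gene daf-2 had one 261 bp upstream with 30.02 pooled, 9.32 in replicate 1 and 14.6 in replicate 2. hsf-1, the heat shock factor gene, had 2, the stronger with 39.8, 24.7 and 21.6. In the TGF-beta branch they were at the ligand gene dbl-1, at the receptor genes daf-1, daf-4 and sma-6, at the Smad gene daf-8 and at the Ski-like gene daf-5, where the site had 38.7, 7.72 and 21.4. In every one of these counts a gene of a divergent pair can share its site with its neighbour.

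Hox genes pattern the body axis. None of the 6 had a weak promoter site, which with 6 genes is not told apart from the 9.04% of all genes. An optimal peak was in the promoter of 5, beside 19.2% of all genes. Weak sites within the gene were found in 4, beside 18% of all genes, among them lin-39 with 5 and mab-5 with 3. The list had a median gene length of 4931.5 bp, and genes with a weak site in the promoter or body were longer in general. These 4 genes lay on chromosome III, which had the most weak sites for its length.

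Lists of tissue genes are given by their counts, beside the 9.04% of all genes with a weak promoter site and the 19.2% with an optimal peak, and no difference between lists was tested. Of 24 epidermal genes 6 had a weak site and 4 an optimal peak, and the weak ones included the cuticle collagen genes dpy-2 with 47.3 and sqt-3 with 29.2. Of 20 intestinal genes 4 had a weak site, at cpr-1, asp-1, spl-1 and act-5, with pooled scores from 24.3 to 28.7, and 1 an optimal peak. Of 23 body-wall muscle genes 4 had a weak site, including the troponin gene unc-27 with 45.1, and 12 an optimal peak. The pharyngeal list had 2 of 12, pha-4 and tbx-2, both at 14.9, and the ciliary list 4 of 20, including the intraflagellar transport gene osm-6 with 19.2. Germline genes had 1 of 34, gld-1 with 40.2.

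Lists with many optimal peaks had weak-site shares below or above the 9.04% of all genes, and no difference was tested. Over all genes a weak site stood in 8.80% of promoters with an optimal peak and 9.09% of those without. The rule bars weak sites from the 200 bp beside an optimal summit. Ribosomal protein genes had an optimal peak in 70 of 78 promoters and a weak site in 4, or 5.13%. Proteasome genes had them in 27 of 33 and 2, or 6.06%, and synMuv B and DRM genes in 10 of 18 and 1, or 5.56%. Body-wall muscle genes with 12 of 23 and 4, pan-neuronal genes with 10 of 21 and 5, and heterochronic genes with 5 of 10 and 3 had many optimal peaks and a weak-site share above the 9.04% of all genes. The 2 proteasome genes, pas-1 and rpt-6, both had an optimal peak too, and the site of rpt-6 is also that of the histone gene his-72. Histone genes had a weak site in 6 of 72 promoters, or 8.33%, and an optimal peak in 12. Notch and Ras genes had a weak site in 2 of 20, the Raf gene lin-45 and ksr-1, and an optimal peak in 1. Both lists were near the 9.04% of all genes.

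Large gene families lay on both sides of the 9.04% of all genes. Nuclear receptor genes had a weak promoter site in 33 of 269, or 12.3%, ceh homeobox genes in 7 of 64, or 10.9%, and basic helix-loop-helix genes in 4 of 25. Cytochrome P450 genes had 6 of 74, collagen genes 9 of 156, ion channel genes 7 of 136, neuropeptide genes 7 of 147, T-box genes 1 of 19 and the ground-like, grd and wrt genes 2 of 57. The lowest shares were 8 of 1301 chemoreceptor genes, or 0.615%, 3 of 239 C-type lectin genes and 6 of 395 F-box and MATH genes. Those families also had few optimal peaks, in 11, 4 and 26 promoters.

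**Figure D5:**
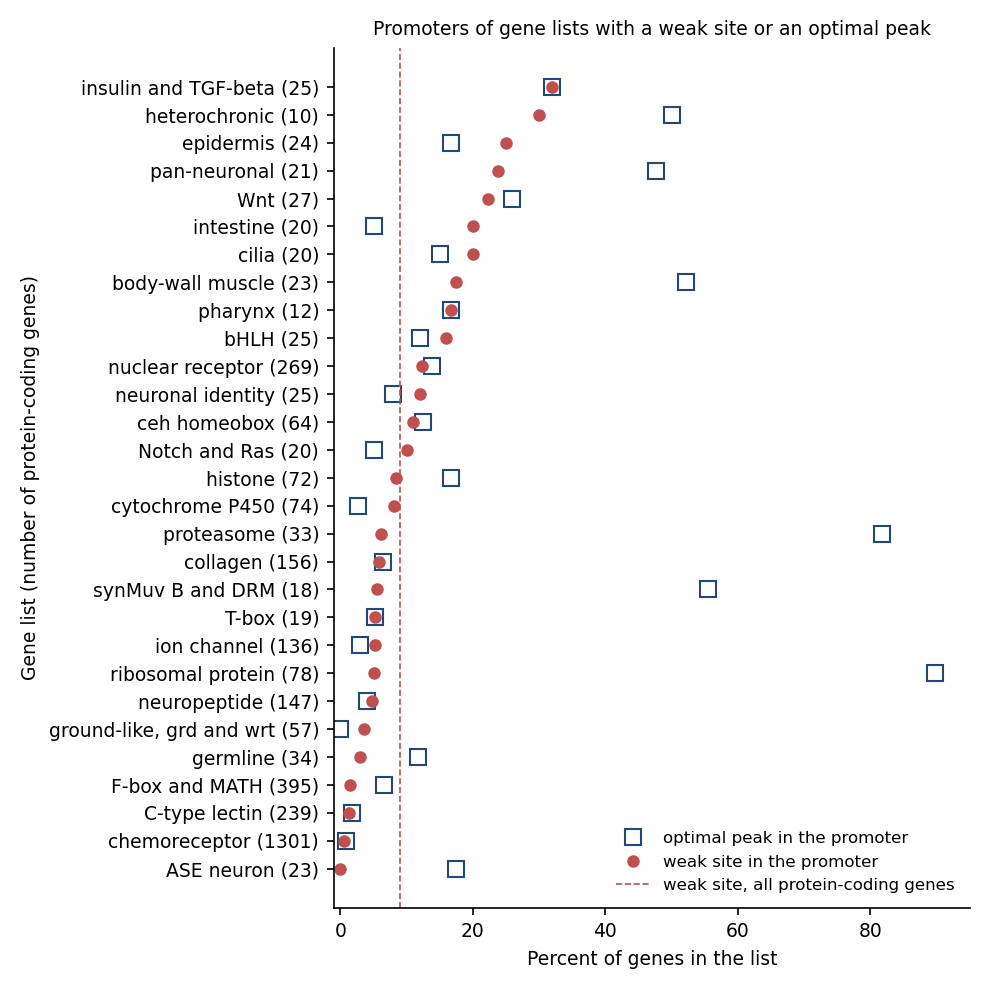
Percent of genes with a weak reproducible site (circles) and with an optimal peak (squares) in the promoter, for the 29 lists of 10 or more protein-coding genes; the dashed line is the 9.04% of all protein-coding genes with a weak site. Weak-site shares run from 0% for the ASE list to 32.0% for insulin and TGF-beta signalling, and ribosomal protein genes have the highest optimal-peak share at 89.7%.

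tRNA and snoRNA genes had optimal peaks nearby more often than weak sites, as protein-coding promoters did at 19.2% and 9.04%. Of 612 tRNA genes 75, or 12.3%, had a weak summit no farther than 200 bp, and 30.6% had an optimal one. For 346 snoRNA genes the shares were 8.96% and 26.3%. The tRNA genes with 200 bp on either side covered 0.272% of the genome and held 0.881% of weak sites and 2.80% of optimal peaks. For snoRNA genes these values were 0.182%, 0.403% and 1.46%. Long intergenic RNA genes had a weak site at 39 of 194, or 20.1%, and an optimal peak at 15.98%. Their windows covered 0.310% of the genome and held 0.553% of weak sites and 0.618% of optimal peaks. Pseudogenes had a weak site at 35 of 2128 and piRNA genes at 144 of 15363. Windows of pseudogenes covered 4.02% of the genome and held 0.503% of weak sites, and those of piRNA genes covered 3.32% and held 1.18%.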

How the data were processed

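LSY-2 ChIP-seq was measured in 2 biological replicates of whole L2 larvae. Per the descriptions deposited with the files, a relaxed peak list was called on each replicate against a control and on both pooled, and an optimal list was derived from these 3; each was given on ce11 and ce10. The aligner, the peak caller, its settings and the threshold of the optimal list are not given in the sources used here, and the control reads were not analysed here. The authors deposited a score and a −log10 of a q-value for every peak. Both are the authors' own, and the q-value is tied at its maximum for many peaks. The depth is unknown, so weak and shallowly sequenced sites cannot be separated.

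The members, gene lists and motifs were chosen with earlier results of these data known. Positions are on ce11, the assembly WBcel235, with 1-based coordinates. Genes came from Ensembl release 115, and symbols from RefSeq for 46881 of 46890 genes. Sequence came from the RefSeq FASTA of that assembly. A summit base was assigned in the order promoter, 5′ UTR, coding exon, 3′ UTR, intron, intergenic. Shares have exact 95% intervals, and no test between conditions was possible with 1 group. Named genes were those with a 5′ end within 2000 bp of the 20 highest-scoring sites, up to 4 per list with the highest weak promoter site (2 in lists of over 40 genes), fixed ASE genes, and genes of printed sequences; other genes were chosen after their values were seen. Calculations used Python 3.11.15, pandas 2.3.3, NumPy 2.4.6 and SciPy 1.17.1 and were tested on simulated peak lists. Alternatives varied the distances, the promoter window, the motif window, the replicates required, the score range and the build.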

Additional observations from a re-analysis of the deposited data

How the results depend on the processing

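Recomputing the 6 results under alternative settings gave 62 values. Of these, 36 stayed within 1.5 times for counts or within the interval for shares, and 26 moved. Some moves follow from the setting itself, such as the number of sites when 50% are kept and the GAGAGA share in a wider window. Replicate summits within 50 bp gave 4725 sites, a promoter share of 23.6% and 919 genes with a weak site and no optimal peak in the promoter; within 200 bp the GAGAGA share was 12.3%. Sites over 1000 bp from optimal summits had promoter and intron shares of 21.01% and 39.2%. Without replicate 1 or without replicate 2 as a requirement, there were 13548 to 14657 sites, with promoter shares of 21.03% to 21.2%, intron shares of 39.3% to 39.6%, GAGAGA at 10.8% to 11.1% and 2153 to 2294 genes. The 50% of sites with the highest scores, 3975, had 24.4% in promoters, 35.1% in introns, 18.6% on X, GAGAGA at 16.6% and 861 genes. With promoters of 500 bp upstream to 100 bp downstream, the promoter and intron shares were 14.6% and 39.6%, beside 11.2% of the genome in such promoters; with 2000 bp to 200 bp they were 36.6% and 34.6%, beside 36.1%. GAGAGA within 100 bp on either side stood at 22.6%. The ce10 lists gave 7984 sites. Leaving out sites whose replicate summits were near optimal summits, an alternative chosen after seeing the data, gave 7686. No paired analysis was possible because there is 1 group. Peak lists limit all values, since neither read depth nor signal outside peaks enters them.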
